A study of Mus musculus with 18 samples.

Results

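Splenic B cells taken from mice that had received both an antibody against IgD and the BTK inhibitor PF-303 were set against B cells from mice that had received neither. The comparison holds the 5 arrays labelled with both treatments and the 4 arrays labelled PBS and vehicle, which are 9 of the 18 arrays of the series. It gives the net state of the stimulated and inhibited cells relative to untreated cells across 11104 named genes. All mice were of the C57BL/6J strain, and all cells were CD23-positive B lymphocytes of the spleen. In the anti-IgD plus PF-303 group (n = 5) the inhibitor was injected 2 h before the antibody. In the anti-IgD plus vehicle group (n = 4) vehicle took the place of the inhibitor, and in the PBS plus PF-303 group (n = 5) PBS took the place of the antibody. The PBS plus vehicle group (n = 4) had vehicle and then PBS at the same times, and the cells of every group were collected 2 h after the second injection. The labels give no genotype or age, and they do not say that each sample came from a separate mouse. The p-values therefore rest on sample-to-sample spread that may be technical in part, and the number of arrays limits their precision.

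IgD is an antigen receptor of mature follicular B cells, and an antibody against it crosslinks the receptor. The kinases LYN and SYK act first after crosslinking. BTK then activates phospholipase C, which feeds the calcium and NFAT pathway and, through protein kinase C, NF-kB. The RAS-MAPK and PI3K arms also start at the receptor, and they drive immediate early genes, cell growth and the loss of quiescence genes held up by FOXO factors. A BTK inhibitor is thus given in order to block some arms of receptor signalling.

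RNA was hybridised to Affymetrix Mouse Genome 430 2.0 arrays, and values are MAS5 signals, a linear intensity per probe set in which the authors scaled each array to one level. Net differences below are log2(signal + 16) in anti-IgD plus PF-303 minus log2(signal + 16) in PBS plus vehicle, with the standard error of a limma fit over all 18 arrays. The adjusted p is limma's two-sided p with Benjamini-Hochberg adjustment over the 11104 genes, and "called" below means an adjusted p under 0.05. The follicular B cell markers were strong in both groups, with Ms4a1, which encodes CD20, averaging 7312 in anti-IgD plus PF-303 and 7273 in PBS plus vehicle. Of the T cell markers, Cd3e, Cd247, Cd4, Cd8b1, Thy1 and Trat1 did not pass the signal filter, and no T cell, NK cell, macrophage, neutrophil, platelet or mast cell marker was called. The summed signal of the 13 T cell markers on the array lay between 1037 and 1384 in anti-IgD plus PF-303 and between 1168 and 1405 in PBS plus vehicle. Cd2 made up most of that sum, with means of 1024 and 1089, while Cd3d averaged 19.4 in anti-IgD plus PF-303 and 15 in PBS plus vehicle. Markers of other B cell states went both ways, where 12% of all genes were called higher and 13.4% lower. Of 10 marginal zone and B1 markers, 3 were higher, led by S1pr3 (1.08), and 4 lower, led by Cd1d1 (-0.69). Of 5 plasma cell markers, Prdm1 (1.11) and Xbp1 (0.35) were higher and Sdc1 (-0.81) and Mzb1 (-0.51) lower. Rgs13 of the germinal centre list (0.69) and Blk of the follicular list (0.46) were higher, and the follicular Pax5 (-0.46) and Cxcr5 (-0.31) lower. Elsewhere Ccr9 of dendritic cells (2.10), Tfrc of erythroid cells (0.72) and Pecam1 of stromal and endothelial cells (-0.73) were called. The part of these markers in the results was not tested. The summed signal of the 12 macrophage and monocyte markers on the array ran between 2374 and 3816 in anti-IgD plus PF-303 and between 2196 and 3109 in PBS plus vehicle. Arrays 1 and 3 of anti-IgD plus PF-303 and arrays 3 and 4 of PBS plus vehicle had spike-in controls over 2 times those of the median array. Array 1 of anti-IgD plus PF-303 and array 4 of PBS plus vehicle also had a high Gapdh 3' to 5' ratio with a low 18S signal. In a bulk sample, fewer cells of a type and less RNA per cell cannot be told apart.

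Both treatments together left the cells far from the untreated state. Along the first principal component of all 18 arrays (53.4% of the variance) anti-IgD plus PF-303 lay at 11.5 ± 1.91 (SD, n = 5) and PBS plus vehicle at -18.8 ± 2.43 (SD, n = 4). The difference of 30.3 had an exact permutation p of 0.0159 (two-sided), the smallest that 5 against 4 arrays can give. The anti-IgD plus vehicle arrays lay farther out on the same side at 38.5 ± 1.92 (SD, n = 4), and PBS plus PF-303 lay at -27.3 ± 1.25 (SD, n = 5), so the 4 groups did not overlap on this component. The second component (8.95% of the variance) gave an exact permutation p of 0.111 between anti-IgD plus PF-303 and PBS plus vehicle. Spike-in signal and the Gapdh 3' to 5' ratio gave exact permutation p-values of 0.952 and 0.73 between the same groups.

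Of the 11104 genes tested, 2828 were called, which is 25.5%. Of these, 1335 were higher in anti-IgD plus PF-303, or 12% of all genes, and 1493 were lower, or 13.4%. Most calls were small: 137 genes (1.23%) were at least 2-fold higher and 43 genes (0.387%) at least 2-fold lower. The 5 and 4 arrays did not overlap for 2113 genes (19%), 1023 of them higher and 1090 lower in anti-IgD plus PF-303. The median net difference over all genes was -0.04 on the log2 scale, and when every array was shifted to one median the calls became 1623 higher and 1106 lower. The share of higher calls was thus 47.2% as deposited and 59.5% after that shift. Leaving out the arrays whose spike-in signal was high left 1050 genes higher and 1124 lower, and leaving out the 2 arrays of high Gapdh ratio left 1178 and 1338. The second of these settings was chosen after seeing the data.

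**Figure D1:**
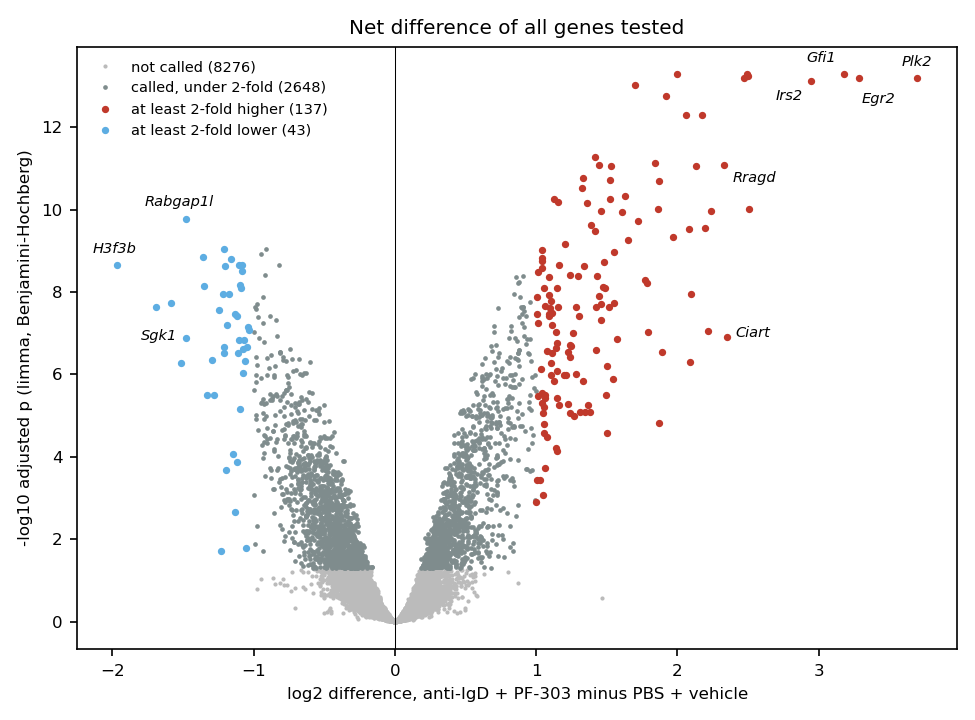
Net log2 difference of each of the 11104 genes tested (horizontal axis, anti-IgD plus PF-303 minus PBS plus vehicle) against the negative log10 of its adjusted p (vertical axis). The 137 genes at least 2-fold higher reach out to Plk2 and Egr2 on the right, while the 43 genes at least 2-fold lower end at H3f3b on the left.

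Immediate early genes, which are transcribed within minutes of a receptor signal, were more often higher than lower in cells that met both agents. Of 28 measured members, 15 rose and 3 fell, against 12% and 13.4% of all genes, and the median net difference of the list was 0.47 against -0.04 over all genes. Plk2, which encodes a polo-like kinase, had the largest net difference of all genes called. Its signals were 348, 446, 399, 299 and 358 in anti-IgD plus PF-303, against 15.8, 16.4, 13.8 and 8.88 in PBS plus vehicle. Every stimulated array was thus far above every untreated one, and the net difference was 3.70 ± 0.15 (adjusted p = 6.42e-14). The means differed 27.0-fold, while the net difference on the offset scale is 12.9-fold, because adding 16 shrinks the change of a gene that is near the background in one group.

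The EGR transcription factors, zinc-finger proteins induced by MAPK signalling, rose as well. Egr2 had signals of 691, 676, 751, 705 and 843 in anti-IgD plus PF-303, against 69.3, 84.5, 59.8 and 37.2 in PBS plus vehicle, a net difference of 3.28 ± 0.13 (adjusted p = 6.42e-14). Egr1 had 4271, 2676, 4140, 2990 and 3453 in anti-IgD plus PF-303, against 732, 672, 654 and 388 in PBS plus vehicle, a net difference of 2.51 ± 0.16 (adjusted p = 9.49e-11). The groups did not overlap for either gene. Egr3 rose by 1.77 ± 0.14 (adjusted p = 5.12e-09), and its 2 probe sets ran between 0.66 and 1.77. PF-303 without the antibody lowered all 3 of them, to means of 108 ± 19 for Egr1, 11.7 ± 2.98 for Egr2 and 221 ± 21.2 for Egr3 (SD, n = 5), against 611 ± 153, 62.7 ± 19.8 and 964 ± 139 in PBS plus vehicle (SD, n = 4).

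The orphan nuclear receptors of the NR4A family, rapid reporters of antigen receptor signalling, differed in size. Nr4a1 had 1201, 1110, 1022, 634 and 971 in anti-IgD plus PF-303, against 222, 232, 162 and 162 in PBS plus vehicle, with no overlap and a net difference of 2.24 ± 0.14 (adjusted p = 1.1e-10). Nr4a3 had 137, 102, 133, 70.5 and 108 in anti-IgD plus PF-303, against 25.5, 33.7, 23.1 and 24.2 in PBS plus vehicle, again without overlap, and a net difference of 1.54 ± 0.18 (adjusted p = 1.26e-06). In anti-IgD plus vehicle Nr4a3 averaged 1002 ± 146 (SD, n = 4), and anti-IgD plus PF-303 differed from that group by -3.03 ± 0.18 on the log2 scale (adjusted p = 3.75e-10), against -1.25 ± 0.14 for Nr4a1. Myc, a master regulator of growth genes, had 1272, 885, 914, 791 and 759 in anti-IgD plus PF-303, against 462, 457, 497 and 679.6 in PBS plus vehicle. All 5 stimulated arrays lay above all 4 untreated ones, at a net difference of 0.79 ± 0.13 (adjusted p = 5.18e-05), and the anti-IgD plus vehicle mean was 2883 ± 138.

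Fos, the AP-1 subunit, was one of the 3 members that fell, the others being Jund and Btg2. Its signals were 36.9, 73.4, 71, 326 and 62.5 in anti-IgD plus PF-303, against 228, 264, 303 and 135 in PBS plus vehicle. Array 4 of anti-IgD plus PF-303 was above all untreated arrays and the other 4 were below them. The net difference of -1.23 ± 0.38 (adjusted p = 0.0195) lost its call when array 1 of anti-IgD plus PF-303, array 2 or 3 of PBS plus vehicle or the arrays with high spike-ins were left out, with limma's adjusted p up to 0.139 over all settings. PBS plus PF-303 averaged 39.5 ± 19.1. MAPK feedback genes, such as the DUSP phosphatases that switch the pathway off, had 8 of 16 members higher and 1, Phlda1, lower. Over all genes 12% were higher and 13.4% lower. The Phlda1 call was lost in 10 settings. Among these were the fits without array 2, 4 or 5 of anti-IgD plus PF-303. Others were the fits without array 1, 2 or 4 of PBS plus vehicle. Plaur, the urokinase receptor, led the list at 1.34 ± 0.10 and Dusp2 followed at 0.96 ± 0.08. The 8 became 4 without array 3 of PBS plus vehicle, and 4 without the arrays with high spike-ins.

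**Figure D2:**
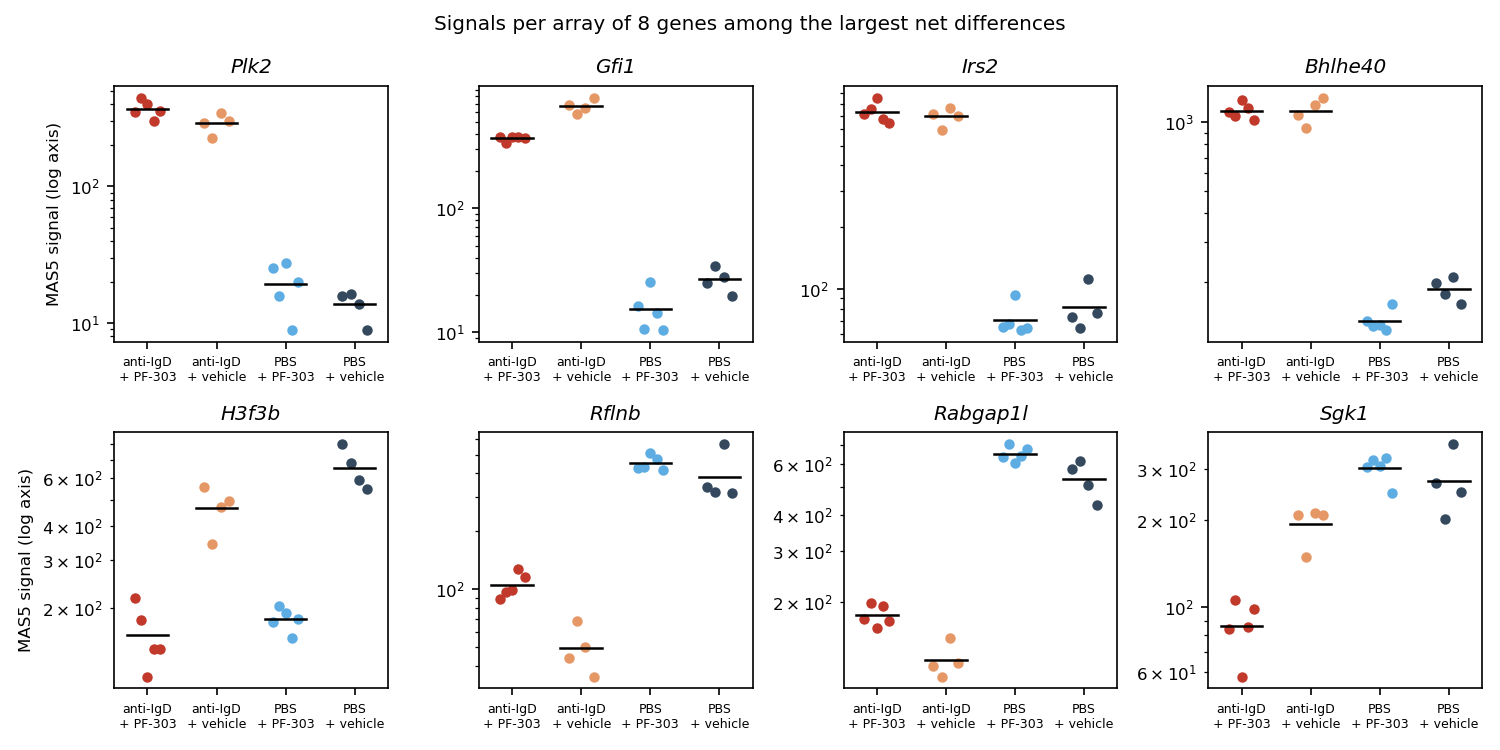
MAS5 signals per array (log axis) of 8 genes among the largest net differences, with 1 point per array and a bar at the mean of each group. Plk2, Gfi1, Irs2 and Bhlhe40 are high with the antibody whether or not PF-303 was given, whereas Rflnb and Rabgap1l are low with the antibody and lowest without PF-303, Sgk1 is lowest with both treatments and H3f3b is low in both PF-303 groups.

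Several transcriptional regulators and signalling proteins outside the immediate early list were among the largest rises. Gfi1, a zinc-finger repressor, had 377, 339.6, 376, 379 and 366 in anti-IgD plus PF-303, against 25, 34.3, 27.9 and 19.5 in PBS plus vehicle. Its net difference was 3.18 ± 0.12 (adjusted p = 5.21e-14), with a narrow spread in the stimulated arrays. Irs2, an adaptor of insulin and IGF receptors that FOXO factors can induce, had 710.1, 752, 857, 675 and 643 in anti-IgD plus PF-303, against 73, 64.7, 112 and 76.1 in PBS plus vehicle, a net difference of 2.95 ± 0.12 (adjusted p = 7.7e-14). Bhlhe40, a basic helix-loop-helix repressor, had 1107, 1068, 1248, 1158 and 1023 in anti-IgD plus PF-303, against 198, 177, 211 and 160.3 in PBS plus vehicle, a net difference of 2.49 ± 0.10 (adjusted p = 5.21e-14). The groups did not overlap for any of the 3. Ciart, a repressor in the circadian clock, rose by 2.35 ± 0.23, Mreg, which encodes melanoregulin, by 2.22 ± 0.22, and the cytokine gene Tgfb3 by 2.20 ± 0.15. Lztfl1, whose product takes part in ciliary protein traffic, rose by 2.47 ± 0.10, and Fam167a averaged 718 ± 82.2 in anti-IgD plus PF-303 and 113 ± 8.61 in PBS plus vehicle (SD, n = 5 and 4, limma's adjusted p = 5.59e-14). The 5 probe sets of Lztfl1 that passed the filter ran between 0.43 and 2.47.

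For some of these genes the inhibitor left no difference that the test could call. Relative to anti-IgD plus vehicle, where 30.2% of all genes were called, Bhlhe40 differed by -0.00 on the log2 scale, with a 95% interval of -0.20 to 0.20. The same interval was -0.25 to 0.16 for Fam167a, -0.19 to 0.32 for Irs2, -0.62 to 0.36 for Ciart and 0.03 to 0.65 for Plk2. The first 4 intervals hold 0, and that of Plk2 lay above 0 while its adjusted p was 0.0962. Egr2, at -1.80 ± 0.13, and Gfi1, at -0.84 ± 0.12, were in contrast called lower than in anti-IgD plus vehicle. The 2 comparisons share the arrays of anti-IgD plus PF-303.

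The genes with the largest falls included enzymes, adaptors and a histone gene. H3f3b, which encodes the replication-independent histone H3.3, had 218, 180.2, 112, 141 and 141 in anti-IgD plus PF-303, against 802, 685, 590.4 and 548 in PBS plus vehicle. The groups did not overlap and the net difference was -1.96 ± 0.15 (adjusted p = 2.25e-09). PBS plus PF-303 was also low for this probe set, at a mean of 182 ± 18 (SD, n = 5), and anti-IgD plus PF-303 differed from it by -0.21 ± 0.14 (adjusted p = 0.287). Rabgap1l, a GTPase-activating protein of RAB proteins, had 175, 199, 163, 195 and 172 in anti-IgD plus PF-303, against 579.5, 617, 510.1 and 433 in PBS plus vehicle, with no overlap and a net difference of -1.48 ± 0.10 (adjusted p = 1.67e-10). Its 5 probe sets ran between -1.48 and -0.12.

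Rflnb, whose product binds filamin, had 89.5, 97, 98.8, 127 and 115 in anti-IgD plus PF-303, against 338, 320, 567 and 315 in PBS plus vehicle, a net difference of -1.69 ± 0.15 (adjusted p = 2.33e-08). Its 3 probe sets ran between -1.69 and -0.52. Neurl3, a ubiquitin ligase gene, had 78.4, 141, 125, 112 and 143 in anti-IgD plus PF-303, against 379.8, 374, 510 and 300.5 in PBS plus vehicle, a net difference of -1.59 ± 0.14 (adjusted p = 1.85e-08). Array 3 of PBS plus vehicle was the highest for both, and neither gene's groups overlapped. Pde4b, which degrades cyclic AMP, fell by 1.28 on the log2 scale, Cdc25b, a phosphatase that activates cyclin-dependent kinases, by 1.35, and Kif21b, a kinesin, by 1.52. Fchsd2, Hepacam2, Pgap1, Fam214a, Kbtbd11 and the guanylate-binding protein gene Gbp3 fell by between 1.21 and 1.36. Probe sets ran between -1.21 and -0.31 for Kbtbd11, between -1.29 and -0.34 for Pgap1 and between -1.36 and -0.70 for Fchsd2. The 15 genes with the largest rises and the 15 with the largest falls all kept their calls in every alternative setting that was run.

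Several surface proteins of activated B cells were higher. Among 26 measured genes for surface and secreted proteins of activation, 9 were higher, 4 lower and 13 not called, against 12% higher and 13.4% lower over all genes, with a median of 0.06, and 5 of the 13 are also on the NF-kB list. Pdcd1lg2, which encodes PD-L2, had 524, 654, 672, 518 and 536 in anti-IgD plus PF-303, against 108, 136, 102 and 118 in PBS plus vehicle, a net difference of 2.18 ± 0.10 (adjusted p = 5.04e-13). Cd274, which encodes PD-L1, had 915, 752, 745, 721 and 677 in anti-IgD plus PF-303, against 193, 177, 164 and 268 in PBS plus vehicle, a net difference of 1.86 ± 0.12 (adjusted p = 9.76e-11). Neither gene overlapped between the groups, and both were also higher in anti-IgD plus PF-303 than in anti-IgD plus vehicle, by 0.42 ± 0.10 (adjusted p = 0.00289) and 0.46 ± 0.12 (adjusted p = 0.00439).

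Cd86, the costimulatory ligand of CD28, had 549, 567, 621, 450.1 and 497 in anti-IgD plus PF-303, against 169, 192, 186 and 189 in PBS plus vehicle, a net difference of 1.46 ± 0.09 (adjusted p = 1.1e-10). Cd83, a marker of activated B cells and dendritic cells, had 4383, 4001, 5246, 3722 and 3655 in anti-IgD plus PF-303, against 1379, 1709, 1531 and 1314 in PBS plus vehicle, a net difference of 1.49 ± 0.12 (adjusted p = 7.8e-09). Neither overlapped. Cd69, an early activation antigen, had 560.2, 554, 579.5, 373 and 566 in anti-IgD plus PF-303, against 356, 439, 258 and 370.5 in PBS plus vehicle, so that array 4 of the stimulated group lay within the untreated range. Its net difference was 0.55 ± 0.15 (adjusted p = 0.00855), and the call was lost when the arrays with high spike-ins were left out (adjusted p = 0.306). The chemokine gene Ccl4 rose by 1.14 ± 0.19 and differed from anti-IgD plus vehicle by -2.57 ± 0.19. Ccl3 had 18.9, 17.8, 28.4, 39.2 and 24.3 in anti-IgD plus PF-303, against 17.5, 0.882, 9.21 and 6.21 in PBS plus vehicle, where 3 of 4 arrays were below the filter value of 15.19. Its net difference was called at 0.79 with the offset of 16, and its size followed the offset, at 1.85 with 1 and 0.31 with 64. Cd200, Cd40, Cd44 and Icam1 fell, with Cd200, an inhibitory ligand, at -1.06 ± 0.12.

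Receptors that position B cells in the spleen went both ways, with 7 of 20 measured members higher and 6 lower, against 12% and 13.4% of all genes. Ccr7, the receptor that draws B cells to the T cell zone, rose by 0.97 ± 0.11 (adjusted p = 1.18e-06) and Rgs1, which dampens chemokine receptor signals, by 1.78 ± 0.15 (adjusted p = 6.17e-09). Itga4, the alpha-4 integrin, had 420.4, 310.4, 328, 437 and 356 in anti-IgD plus PF-303, against 863, 744, 734 and 971 in PBS plus vehicle, with no overlap and a net difference of -1.13 ± 0.10 (adjusted p = 3.38e-08). S1pr4 fell by 0.92 and Klf2, a transcription factor of resting lymphocytes, by 0.66 on the log2 scale. S1pr1, the egress receptor that KLF2 induces, had 799.8, 722, 729, 633 and 662 in anti-IgD plus PF-303, against 584, 471, 557 and 688 in PBS plus vehicle, which overlapped. Its net difference of 0.30 ± 0.11 (adjusted p = 0.0461) was called here and lost its call in 19 of the alternative settings, among them the fits without array 1, 2 or 3 of either group. In anti-IgD plus vehicle S1pr1 averaged 277 ± 45.3 (SD, n = 4), and anti-IgD plus PF-303 was higher by 1.31 ± 0.11 (adjusted p = 1.7e-08).

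Components of the receptor pathway were split. Of 34 measured members, 8 rose and 7 fell, against 12% and 13.4% of all genes, and the median net difference was -0.02. The 7 became 11 after quantile normalization. Fyn, a SRC-family kinase, rose by 1.46 ± 0.13 (adjusted p = 1.91e-08) and Pik3ap1, the PI3K adaptor BCAP, by 1.06 ± 0.15 (adjusted p = 1.58e-05). Syk had 1172, 879.5, 961, 1085 and 885 in anti-IgD plus PF-303, against 1952, 1870, 1861 and 2131 in PBS plus vehicle, with no overlap and a net difference of -0.97 ± 0.09 (adjusted p = 4.13e-08). Vav3, Cblb and the inhibitory Fc receptor gene Fcgr2b fell by between 0.68 and 0.73 on the log2 scale. Btk, the target of the inhibitor, had 1075, 915, 965, 1140 and 983 in anti-IgD plus PF-303, against 987, 1031, 1015 and 1057 in PBS plus vehicle. The groups overlapped, and the 95% interval of the net difference was -0.16 to 0.13. Fcer2a, which encodes the CD23 used to select the cells, differed by -0.21 ± 0.10 (adjusted p = 0.12).

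NF-kB target and feedback genes had 6 of 25 members higher and 8 lower, against 12% and 13.4% of all genes. The 8 became 5 without array 3 of anti-IgD plus PF-303. Irf4, a transcription factor raised in proportion to receptor signal strength, had 1948, 1580, 1706, 1543 and 1294 in anti-IgD plus PF-303, against 496, 405, 503 and 615 in PBS plus vehicle, a net difference of 1.65 ± 0.12 (adjusted p = 5.43e-10). Its 2 probe sets ran between 0.84 and 1.65. Rel and Nfkbie rose too, by 0.58 and 0.61. Bcl3, an atypical IkB protein, had 101, 110.3, 105, 173 and 121 in anti-IgD plus PF-303, against 276, 340, 278 and 303 in PBS plus vehicle, a net difference of -1.21 ± 0.13 (adjusted p = 3.03e-07). Neither of these 2 genes overlapped between the groups. Nfkbia, the IkB-alpha gene, differed by -0.23 ± 0.11 (adjusted p = 0.131), and it was called lower in 4 settings. These were quantile normalization, the mean of its probe sets, the spike-in signal as a covariate and the fit without array 1 of PBS plus vehicle. The calcium and NFAT list had 1 of 17 members higher, Nfatc1 at 0.32 ± 0.11 (a call lost without array 2, 3 or 5 of anti-IgD plus PF-303 or array 2 or 4 of PBS plus vehicle), and 4 lower, led by the calcineurin subunit gene Ppp3cc at -0.57 ± 0.11.

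Ribosome biogenesis genes were mostly higher. Of 51 measured members, whose products make and assemble ribosomal RNA and its subunits, 40 rose and none fell, against 12% and 13.4% of all genes. The median of the list was 0.52, and the number of members called higher lay between 37 and 42 over the alternative settings. Gnl3, a nucleolar GTP-binding protein, had 1323, 1433, 1452, 1302 and 1224 in anti-IgD plus PF-303, against 527, 511, 501 and 437 in PBS plus vehicle, a net difference of 1.42 ± 0.07 (adjusted p = 5.28e-12). Polr1b, a subunit of RNA polymerase I, had 239.6, 246, 223, 210.5 and 260.1 in anti-IgD plus PF-303, against 140.1, 94.5, 88.8 and 122 in PBS plus vehicle, a net difference of 0.998 ± 0.12 (adjusted p = 2.52e-06). The groups did not overlap for either gene. Relative to anti-IgD plus vehicle, 46 of the 51 were lower and none was higher. Of all 11104 genes, 1150 were lower and 2202 higher in that comparison. The structural proteins of the cytosolic ribosome had 4 of 48 members higher and none lower, a share below that of all genes.

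Metabolic gene lists had more members higher than lower, where all genes had 12% higher and 13.4% lower. Nucleotide, serine and one-carbon synthesis had 10 of 24 members higher and none lower. Shmt1, the cytosolic serine hydroxymethyltransferase, had 238, 268, 268, 224 and 223 in anti-IgD plus PF-303, against 66.9, 71.8, 44 and 70.8 in PBS plus vehicle, a net difference of 1.72 ± 0.11 (adjusted p = 1.86e-10). Amino acid and polyamine genes had 8 of 15 higher and none lower. Slc7a5, the LAT1 amino acid transporter, had 396, 295, 299.7, 232 and 261 in anti-IgD plus PF-303, against 71.5, 59.4, 50.9 and 99.2 in PBS plus vehicle, a net difference of 1.87 ± 0.27 (adjusted p = 1.46e-05), and Srm, spermidine synthase, rose by 1.10 ± 0.10. Glycolysis and glucose uptake had 8 of 15 higher and 1 lower, with the lactate transporter gene Slc16a1 at 1.11 ± 0.10 and hexokinase 2, Hk2, at 1.02 ± 0.10. Cholesterol synthesis had 8 of 17 higher, led by Insig1 at 1.06 ± 0.14, and 1, Mvk, lower, a call lost when its probe sets were averaged. The 8 amino acid and polyamine genes became 5 without array 3 of PBS plus vehicle or without the arrays with high spike-ins.

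Lists of protein production and folding genes are read against the same shares of all genes. Aminoacyl-tRNA synthetases had 11 of 19 members higher and 1 lower, and the 11 became 7 without array 2 of anti-IgD plus PF-303 or without the arrays with high spike-ins. Translation factors had 17 of 47 higher and 2 lower, and 11 higher when only the 9 arrays were fitted. Heat shock proteins and chaperones had 14 of 18 higher and none lower, led by the mitochondrial Hspa9 at 0.62 ± 0.07, and the 14 became 8 without the arrays with high spike-ins and 9 without array 1 of PBS plus vehicle. The unfolded protein and integrated stress response had 11 of 24 higher and none lower, and 6 higher without the arrays with high spike-ins. Ddit3, the stress-induced factor CHOP, had 426, 395, 404, 378 and 382 in anti-IgD plus PF-303, against 148, 119, 115 and 127 in PBS plus vehicle, a net difference of 1.53 ± 0.08 (adjusted p = 8.8e-12), while the other 10 members called lay between 0.24 and 0.48. Oxidative phosphorylation subunits, mitochondrial ribosomal proteins and proteasome subunits had 13 of 72, 12 of 75 and 6 of 37 members higher, shares near the 12% of all genes. The 12 became 19 with one median per array, and the 13 became between 6 and 8 without array 3 of anti-IgD plus PF-303 or array 1 or 4 of PBS plus vehicle. The 6 became between 2 and 12 when array 1, 2 or 3 of anti-IgD plus PF-303 or array 1, 3 or 4 of PBS plus vehicle was left out, and 1 when only the 9 arrays were fitted.

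**Figure D3:**
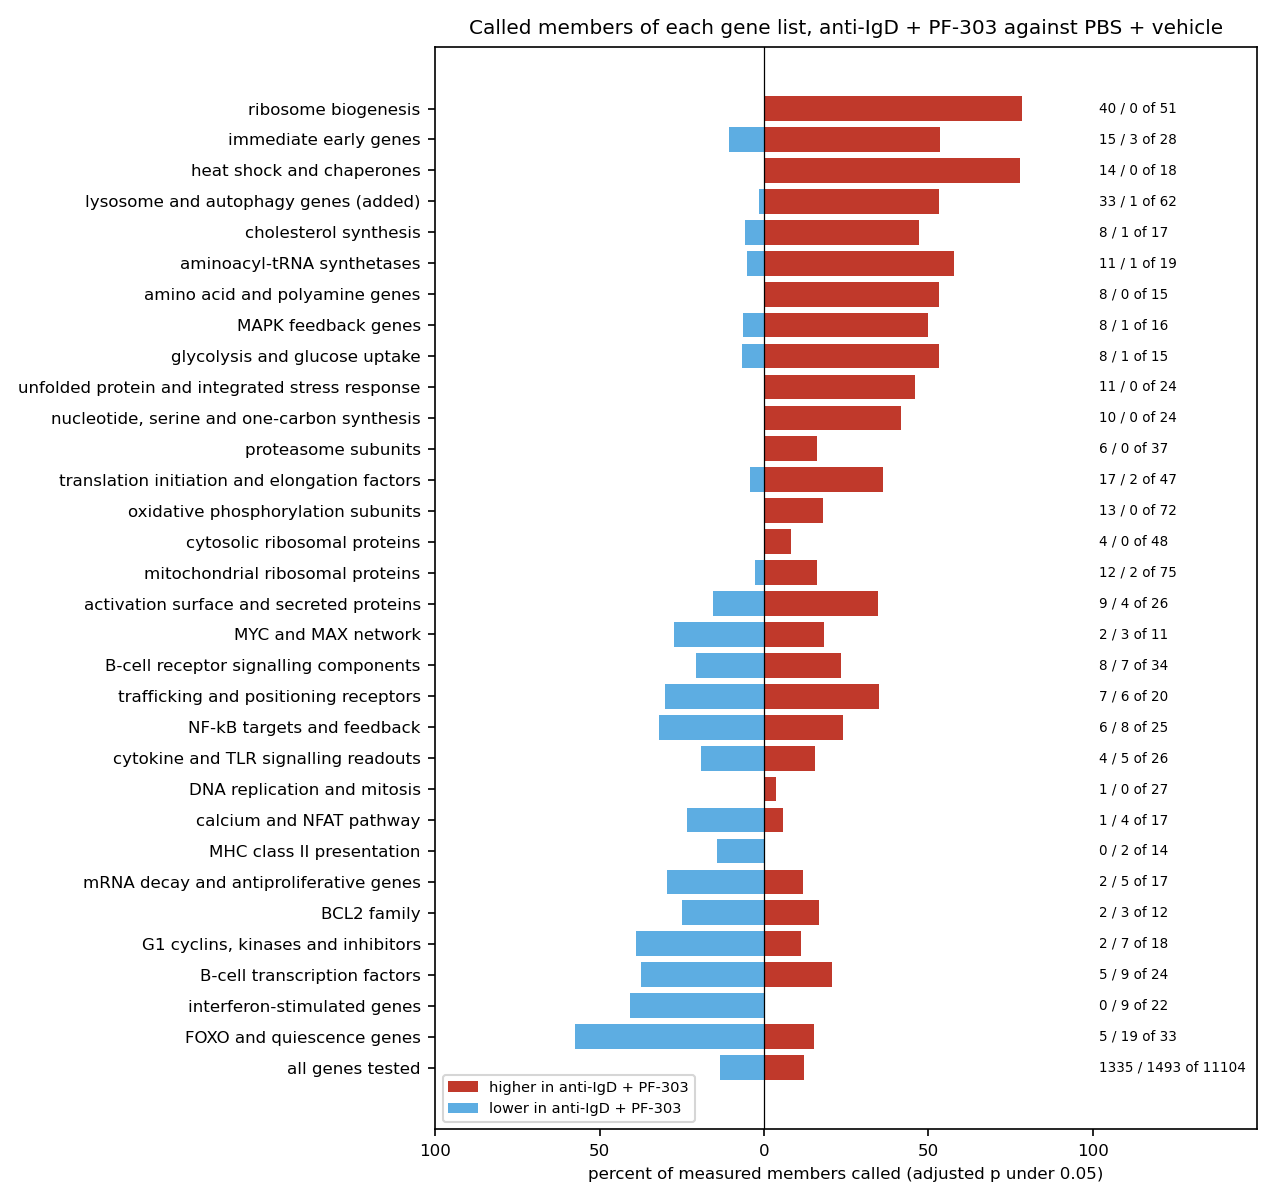
Percent of the measured members of each gene list called higher (right) or lower (left) in anti-IgD plus PF-303 than in PBS plus vehicle, with the counts of higher and lower members and the number measured at the right edge. Ribosome biogenesis, with 40 of 51 higher, and FOXO and quiescence genes, with 19 of 33 lower, stand at opposite ends, and the bottom row gives all 11104 genes.

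Quiescence genes moved the other way. Of 33 measured genes linked to FOXO and quiescence, 19 were lower and 5 higher, against 13.4% and 12% of all genes, with a median of -0.51. Ypel3, a growth-suppressing gene, had 349, 341, 357, 372 and 364 in anti-IgD plus PF-303, against 775, 741, 676 and 622 in PBS plus vehicle, a net difference of -0.95 ± 0.07 (adjusted p = 1.19e-09). Sesn1, a sestrin that restrains mTORC1, had 593, 656, 600.2, 642 and 637 in anti-IgD plus PF-303, against 1235, 1439, 1225 and 1154 in PBS plus vehicle, a net difference of -0.99 ± 0.09 (adjusted p = 2.34e-08). The groups did not overlap for either gene. Foxo3 and Foxo4 themselves fell by 0.55 and 0.92, and Cdkn1b, the p27 cell cycle inhibitor, by 0.54 on the log2 scale. The 5 that rose were Irs2, Pik3ip1, Trib2, Tob2 and S1pr1, so members of the list did not move as one, and the 5 became 3 without the arrays with high spike-ins. In anti-IgD plus vehicle against PBS plus vehicle, 26 of the 33 were lower and 3 higher. Of all 11104 genes, 3394 were lower and 1928 higher in that comparison, which is 47.9% in either direction. That comparison shares the PBS plus vehicle arrays.

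Interferon-stimulated genes had 9 of 22 members lower and none higher, against 13.4% and 12% of all genes, with a median of -0.35. Gbp2 fell by 0.82 and Stat2, a subunit of the interferon-activated factor, by 0.81 on the log2 scale. B-cell transcription factors had 5 of 24 higher, among them Irf4 and Gfi1, and 9 lower (12% and 13.4% of all genes), among them Id3 at -0.97 ± 0.11 and Pax5, the factor of B-cell identity, which fell by 0.46. MHC class II presentation had none of 14 higher and 2 lower, a share near the 13.4% of all genes, namely Rfx5 and H2-DMa, the second of which lost its call in 18 settings. In the cytokine and Toll-like receptor list, Tlr7 rose by 0.93 ± 0.09 and the interleukin-10 receptor gene Il10ra fell by 1.09 on the log2 scale. Of 27 measured replication and mitosis genes only Pcna was called, at 0.66 ± 0.09, a share below the 25.5% of all genes. Of 18 genes of the G1 phase, Cdk4, at 0.78 ± 0.09, and E2f3 rose while 7 fell, against 12% and 13.4% of all genes. Of 12 measured BCL2 family genes, the pro-apoptotic Bbc3 and Pmaip1 were higher, at 0.65 ± 0.19 and 0.61 ± 0.17. Bmf, Bcl2 and Bcl2l11 were lower, where 12% of all genes were higher and 13.4% lower. The Bbc3 call was lost without array 2 of PBS plus vehicle and when only the 9 arrays were fitted. It was also lost without the arrays with high spike-ins and without the 2 arrays of high Gapdh ratio.

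Many genes of the lysosome and of the nutrient-sensing machinery on its surface were higher. The lysosome is the acidic compartment of degradation, kept acid by a proton pump, and RAG GTPases on its membrane report amino acids to mTORC1. A list of such genes was written after Rragd and Dpp7 had been seen among the largest rises, and both are counted among its rises below. Of its 62 measured members, 33 rose, 1 fell and 28 were not called, with a median of 0.29. Over all genes 12% were higher and 13.4% lower. The number higher lay between 26 and 36 over the alternative settings. Rragd, which encodes the RAG GTPase RagD, had 188, 167, 144, 153 and 152 in anti-IgD plus PF-303, against 18, 19.3, 17 and 22.2 in PBS plus vehicle, a net difference of 2.33 ± 0.13 (adjusted p = 8.27e-12). Dpp7, a lysosomal dipeptidyl peptidase, had 853, 1224, 1038, 849.6 and 1077 in anti-IgD plus PF-303, against 253, 219, 213 and 183 in PBS plus vehicle, a net difference of 2.13 ± 0.12 (adjusted p = 8.54e-12). The groups did not overlap for either.

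The counts by role are read against the 12% higher and 13.4% lower of all genes. Of 15 measured proton pump subunits 11 rose and none fell, with Atp6v0d1 at 1.31 ± 0.12 and Atp6v1d at 1.19 ± 0.14. Among 17 hydrolases and related enzymes 10 rose, Dpp7 included. Hexa, a subunit of beta-hexosaminidase, had 2015, 2132, 2201, 1776 and 1929 in anti-IgD plus PF-303, against 769, 905, 762 and 665 in PBS plus vehicle, a net difference of 1.36 ± 0.08 (adjusted p = 7.04e-11) without overlap. Of 11 nutrient-sensing genes 6 rose, Rragd included. Folliculin, Flcn, the GTPase activator of RagC and RagD, was also among the 6. It had 1117, 1076, 1060, 845 and 1128 in anti-IgD plus PF-303, against 401, 349, 324 and 264 in PBS plus vehicle. Its net difference was 1.61 ± 0.10 (adjusted p = 1.11e-10), and its partner Fnip1 and the RAG GTPase gene Rragc rose by 1.24 ± 0.17 and 1.34 ± 0.08. Membrane and transport proteins had 4 of 6 higher and the receptor gene Scarb2 lower, at -0.47 ± 0.09. Autophagy genes had 2 of 11 higher. Tfeb and Tfe3, transcription factors of lysosomal genes, were not called, at -0.17 ± 0.13 and -0.01 ± 0.13.

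Within the lysosome list, 33 of 62 genes were called higher than in anti-IgD plus vehicle and 1 was called lower. Of all 11104 genes, 2202 were higher and 1150 lower in that comparison, which is 30.2% in either direction. In all, 21, Rragd and Dpp7 included, were higher than in each of the 3 other groups, against 1.79% of all genes. That number depended on the setting. It was 6 with the row letter of the position code in the sample descriptions as a block and 10 when arrays were shifted to one median. The anti-IgD groups shared only row C, so row and the comparison of these groups can be told apart only in part. Hexa averaged 2011 ± 168 in anti-IgD plus PF-303 (SD, n = 5), 1193 ± 53.9 in anti-IgD plus vehicle (SD, n = 4), 799 ± 44.2 in PBS plus PF-303 (SD, n = 5) and 775 ± 98.6 in PBS plus vehicle (SD, n = 4). Macrophage markers, which also mark a cell rich in lysosomes, had no member called in the net comparison. Lyz2, the strongest of them, averaged 1496 in anti-IgD plus PF-303 and 1135 in PBS plus vehicle, a net difference of 0.35 ± 0.32. A missed call does not show equal levels, and the part of macrophages in the lysosome values was not tested.

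The 250 bases before the start of each gene were searched for short motifs on both strands, in RefSeq windows of the GRCm38.p6 build that covered 9036 of the 11104 genes. The E-box CACGTG was held by 30 of 108 windows of genes at least 2-fold higher (27.8%), by 5 of 39 windows of genes at least 2-fold lower (12.8%) and by 8.61% of all windows. Its longer form TCACGTGA, which contains CACGTG and is known as the CLEAR-type site of lysosomal genes, was searched for after the lysosomal genes had been seen. It was held by 10 of the 108 windows (9.26%), by 4 of 49 windows of the lysosome list (8.16%) and by 1.62% of all windows. The windows of immediate early genes held the EGR motif GCGNGGGCG in 34.8% and the cyclic AMP response element TGACGTCA in 13%, against 8.58% and 2.76% of all windows. The forkhead motif GTAAACA was in 2.12% of all windows and in 5.13% of those at least 2-fold lower, which is 2 genes. A match is a run of letters and not a shown binding site.

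The windows below belong to Plk2, the gene of largest net difference, and to 5 raised genes that hold TCACGTGA, of which Dpp7, Ctsd and Atp6v1a are on the lysosome list and Lztfl1 and Mfsd1 are not. Mcoln1, the fourth gene of that list with the motif, is not shown. They run 5′ to 3′ on the gene's strand and ending at the base before the start. Capitals mark TGACGTCA in Plk2 and TCACGTGA in the others. Plk2 lies on the plus strand (chr13:110394794-110395043) with its motif from -62, Lztfl1 on the minus strand (chr9:123717626-123717875) with its motif from -48, and Dpp7 on the minus strand (chr2:25356333-25356582) with its motif from -74, counted back from the start. Mfsd1, a lysosomal membrane transporter gene picked after its values were seen, lies on the plus strand (chr3:67582518-67582767) with motifs from -71, -37 and -19. Ctsd, the cathepsin D gene, lies on the minus strand (chr7:142387828-142388077) with its motif from -99, and Atp6v1a, a proton pump subunit gene, on the minus strand (chr16:44139260-44139509) with its motif from -132.
Plk2: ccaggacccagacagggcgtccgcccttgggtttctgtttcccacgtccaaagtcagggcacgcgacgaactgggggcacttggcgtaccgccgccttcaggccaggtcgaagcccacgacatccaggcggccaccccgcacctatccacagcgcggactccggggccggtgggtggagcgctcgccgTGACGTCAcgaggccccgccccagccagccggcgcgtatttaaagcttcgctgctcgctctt
Lztfl1: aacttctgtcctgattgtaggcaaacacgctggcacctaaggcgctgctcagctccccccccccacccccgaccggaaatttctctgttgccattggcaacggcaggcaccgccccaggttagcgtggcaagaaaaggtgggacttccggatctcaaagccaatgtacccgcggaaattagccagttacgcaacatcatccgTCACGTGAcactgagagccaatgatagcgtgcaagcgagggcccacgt
Dpp7: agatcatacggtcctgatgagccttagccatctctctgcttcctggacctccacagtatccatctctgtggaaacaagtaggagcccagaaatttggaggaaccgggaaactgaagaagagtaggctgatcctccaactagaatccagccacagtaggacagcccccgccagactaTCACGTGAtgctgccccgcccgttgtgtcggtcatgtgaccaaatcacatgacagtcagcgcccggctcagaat
Mfsd1: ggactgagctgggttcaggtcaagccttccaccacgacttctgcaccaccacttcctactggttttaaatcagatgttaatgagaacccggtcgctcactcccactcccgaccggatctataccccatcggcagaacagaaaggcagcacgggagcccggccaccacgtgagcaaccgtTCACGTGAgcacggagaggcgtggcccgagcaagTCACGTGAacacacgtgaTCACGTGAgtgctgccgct
Ctsd: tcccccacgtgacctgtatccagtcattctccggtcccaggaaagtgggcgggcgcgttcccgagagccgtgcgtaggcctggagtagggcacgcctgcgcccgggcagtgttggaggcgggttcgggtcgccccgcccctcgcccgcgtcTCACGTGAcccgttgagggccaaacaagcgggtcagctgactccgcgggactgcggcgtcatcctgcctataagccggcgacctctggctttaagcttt
Atp6v1a: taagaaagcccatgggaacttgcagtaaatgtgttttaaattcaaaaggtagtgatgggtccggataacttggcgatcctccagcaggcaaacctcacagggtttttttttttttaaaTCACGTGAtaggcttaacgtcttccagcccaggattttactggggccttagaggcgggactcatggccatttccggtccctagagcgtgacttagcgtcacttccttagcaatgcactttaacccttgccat
Mfsd1 holds the motif 3 times, and each of the other 4 holds it once. Mfsd1 had signals of 761, 782, 798, 821 and 773 in anti-IgD plus PF-303, against 366, 378, 318 and 348 in PBS plus vehicle, a net difference of 1.13 ± 0.07 (adjusted p = 5.53e-11). Ctsd had 310.2, 338, 332, 284 and 288 in anti-IgD plus PF-303, against 200, 166, 226 and 173 in PBS plus vehicle, a net difference of 0.66 ± 0.12 (adjusted p = 0.000196). Atp6v1a rose by 0.65 ± 0.08 (adjusted p = 1.24e-06), and none of these 3 genes overlapped between the groups.

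Some genes were called higher or lower than in every other group where both treatments met. These calls compare group means, so single arrays of the groups can still overlap. There were 199 genes (1.79%) called higher in anti-IgD plus PF-303 than in each of the 3 other groups and 40 genes (0.36%) called lower than in each. The counts were 92 and 15 with the row letter of the position code as a block, in which the anti-IgD groups shared only row C. Rell1, a member of the RELT family of receptors, had 431, 355, 394, 374 and 330.1 in anti-IgD plus PF-303, against 99, 107, 142 and 98.2 in PBS plus vehicle. Anti-IgD plus vehicle averaged 147 ± 6.25 and PBS plus PF-303 116 ± 10.7, so the arrays with both treatments lay above all others. The net difference was 1.63 ± 0.10 (adjusted p = 4.6e-11), and the difference from anti-IgD plus vehicle was 1.26 ± 0.10 (adjusted p = 6.29e-09).

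Pik3ip1, an inhibitor of PI3K, had 511, 535, 482, 495 and 444 in anti-IgD plus PF-303, against 258, 213, 185 and 232 in PBS plus vehicle. Its net difference was 1.10 ± 0.13 (adjusted p = 1.04e-06), it exceeded anti-IgD plus vehicle by 1.01 ± 0.13 and anti-IgD plus vehicle differed from PBS plus vehicle by 0.10 ± 0.14 (adjusted p = 0.588). Gnpda1, glucosamine-6-phosphate deaminase, rose by 1.28 ± 0.15, Lrrc75a by 1.09 ± 0.10 and Adi1, an enzyme of methionine salvage, by 1.01 ± 0.09. For each of these 3 the anti-IgD plus vehicle group did not differ from PBS plus vehicle by the test, at adjusted p of 0.505, 0.209 and 0.166.

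Pim1, a kinase induced by cytokines and receptor signals, was among the genes on the low side. It had 193, 156, 177, 217 and 146 in anti-IgD plus PF-303, against 377, 393, 369 and 432 in PBS plus vehicle, and averaged 499 ± 25.8 in anti-IgD plus vehicle (SD, n = 4). The net difference was -1.09 ± 0.09 (adjusted p = 8.04e-09) with no overlap, and the difference from anti-IgD plus vehicle was -1.42 ± 0.09 (adjusted p = 6.25e-10). Sgk1, a kinase that acts downstream of PI3K, had 84.3, 106, 57.7, 85.4 and 98.7 in anti-IgD plus PF-303, against 268, 202, 364 and 250.1 in PBS plus vehicle, a net difference of -1.48 ± 0.15 (adjusted p = 1.29e-07). Gadd45g, a stress gene, had 40.1, 30.6, 39.9, 51.7 and 44.4 in anti-IgD plus PF-303, against 104, 144, 134 and 87.8 in PBS plus vehicle, a net difference of -1.21 ± 0.13 (adjusted p = 2.13e-07). Neither overlapped. Hivep1, a zinc-finger protein that binds kB motifs, and the predicted gene Gm4274 also fell, at -0.91 ± 0.14 and -0.71 ± 0.13.

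**Figure D4:**
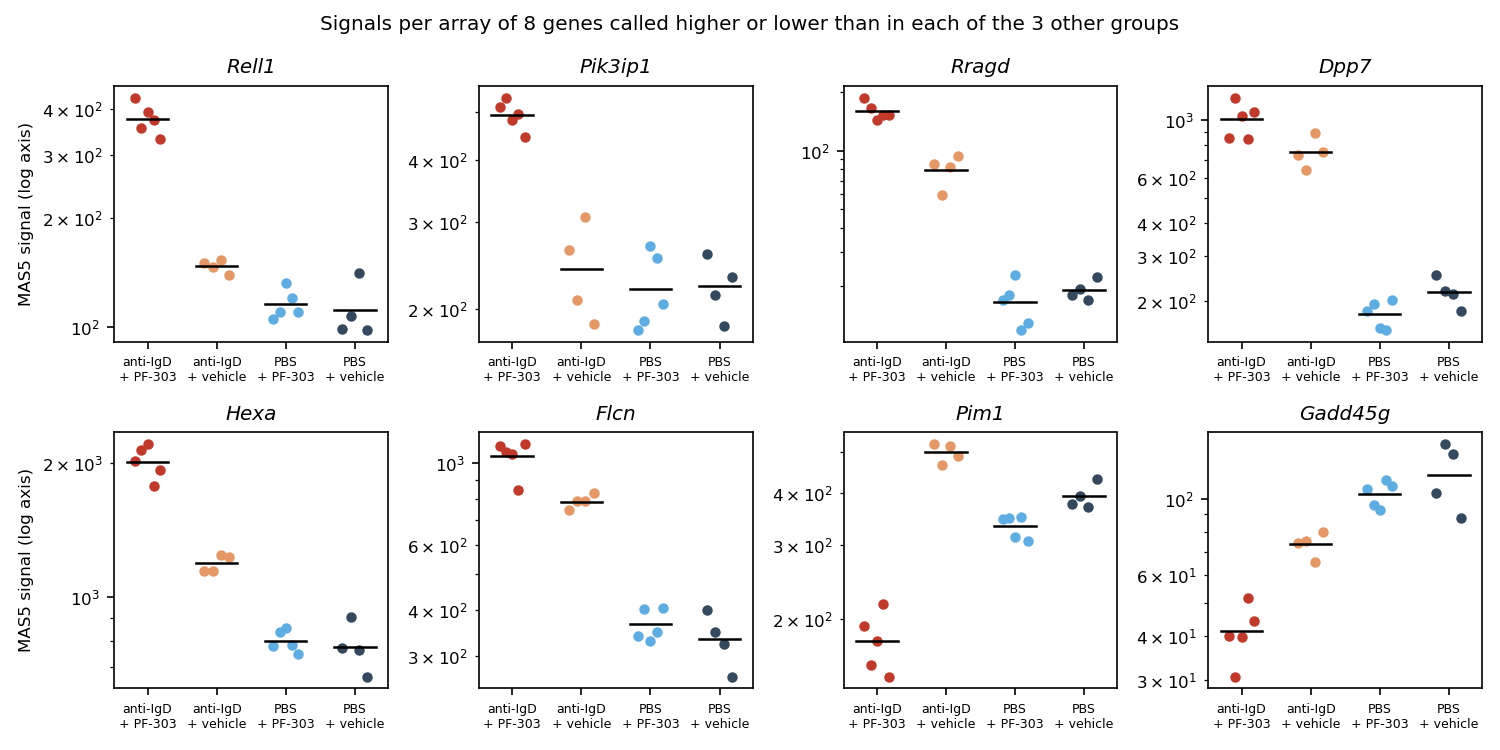
MAS5 signals per array (log axis) of 8 genes called higher or lower in anti-IgD plus PF-303 than in each of the 3 other groups, with 1 point per array and a bar at each group mean. Rell1 and Pik3ip1 stand highest with both treatments, Rragd, Dpp7, Hexa and Flcn are also well above the PBS groups in anti-IgD plus vehicle, and Pim1 and Gadd45g are lowest with both.

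Closeness to the untreated level was judged by an interval and not by a missed test. The 95% interval of the net difference lay within 0.5 of 0 on the log2 scale for 5978 genes (53.8%). The number was 4369 with an offset of 1 and 5256 without array 2 of PBS plus vehicle. Of the 393 genes that anti-IgD without the inhibitor had raised at least 2-fold, 18 met this rule, and those named here were chosen from these 18 and are not typical of the 393. Most of the 393 stayed raised, with 343 called higher and 2 lower in the net comparison. Over all genes 12% were higher and 13.4% lower. Both comparisons share the PBS plus vehicle arrays. Nfkbiz, the atypical IkB protein IkB-zeta, had 366, 337, 299, 327 and 339.7 in anti-IgD plus PF-303, against 430.3, 446, 258 and 308 in PBS plus vehicle, and averaged 1125 ± 82.3 in anti-IgD plus vehicle (SD, n = 4). The groups overlapped, with a net interval of -0.33 to 0.18, and it was called lower when the mean of its probe sets was used or the arrays with high spike-ins were left out. Casp4, an inflammatory caspase, had 177, 226, 203, 209.7 and 218 in anti-IgD plus PF-303, against 209, 233, 222 and 184 in PBS plus vehicle, and averaged 661 ± 64.2 in anti-IgD plus vehicle. Its net interval was -0.22 to 0.15. The calcium channel gene Orai1 had a net interval of -0.03 to 0.36, against a difference of 1.41 ± 0.10 in anti-IgD plus vehicle, and Myb, Klf9 and Chka had net differences of 0.12, 0.06 and 0.07.

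The interval rule was also met by 22 of the 402 genes that anti-IgD without the inhibitor had lowered at least 2-fold. Most of the 402 stayed lowered, with 345 called lower and 2 higher in the net comparison. Cd2, an adhesion receptor, had 920, 989, 1146, 1154 and 909.6 in anti-IgD plus PF-303, against 1030, 1042, 1197 and 1087 in PBS plus vehicle, and averaged 452 ± 5.07 in anti-IgD plus vehicle (SD, n = 4). Snx20 had a net interval of -0.21 to 0.26 and Emp3 one of -0.39 to 0.14. Rasgrp3, a RAS activator that binds diacylglycerol, differed by -0.24 ± 0.10 (adjusted p = 0.0878), against -1.15 ± 0.11 in anti-IgD plus vehicle. It was called lower without array 1 or 4 of anti-IgD plus PF-303 or array 1 of PBS plus vehicle. The same held after quantile normalization and with the mean of its probe sets. Tnfaip8l2 and Rbm43 met the interval rule and were nevertheless called lower, at -0.30 ± 0.09 and -0.27 ± 0.09. Both calls were lost without array 5 of anti-IgD plus PF-303, that of Tnfaip8l2 also without array 3 of PBS plus vehicle, and that of Rbm43 also without array 1 of anti-IgD plus PF-303 or array 2 of PBS plus vehicle. The net and the anti-IgD values share the PBS plus vehicle arrays.

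A small number of genes were called on opposite sides of the untreated level. In 13 genes anti-IgD plus vehicle was above PBS plus vehicle while anti-IgD plus PF-303 was below it, and in 32 genes the order was turned. Nfat5, a transcription factor of osmotic stress, had 142, 123, 124, 142 and 129.8 in anti-IgD plus PF-303, against 211, 169.9, 191 and 202 in PBS plus vehicle, a net difference of -0.50 ± 0.10 (adjusted p = 0.000688) and a mean of 260.5 ± 41.5 in anti-IgD plus vehicle. Gadd45b and Hivep2 fell, at -0.60 ± 0.11 and -0.40 ± 0.09, against 0.35 ± 0.12 and 0.37 ± 0.09 in anti-IgD plus vehicle. Nfkbid, the atypical IkB protein IkBNS, had 479.7, 483, 317, 355 and 358 in anti-IgD plus PF-303, against 661, 621, 381 and 571 in PBS plus vehicle, with overlap. Its net difference of -0.46 ± 0.16 (adjusted p = 0.0403) lost its call in 11 alternative settings, among them the fits without array 3, 4 or 5 of anti-IgD plus PF-303 and without array 1, 2 or 4 of PBS plus vehicle. PBS plus PF-303 averaged 228 ± 51.5 for this gene.

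On the other side, Cnr2, the CB2 cannabinoid receptor, had 999.9, 1279, 1088, 965 and 1072 in anti-IgD plus PF-303, against 842, 821, 835 and 616 in PBS plus vehicle, a net difference of 0.47 ± 0.10 (adjusted p = 0.000911). Its mean in anti-IgD plus vehicle was 568 ± 70.8. The groups of the net comparison did not overlap for this gene. Kctd14 and Edaradd rose by 0.42 ± 0.10 and 0.48 ± 0.11, against -1.07 ± 0.10 and -0.61 ± 0.11 in anti-IgD plus vehicle, and the Edaradd call was lost without the arrays with high spike-ins.

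**Figure D5:**
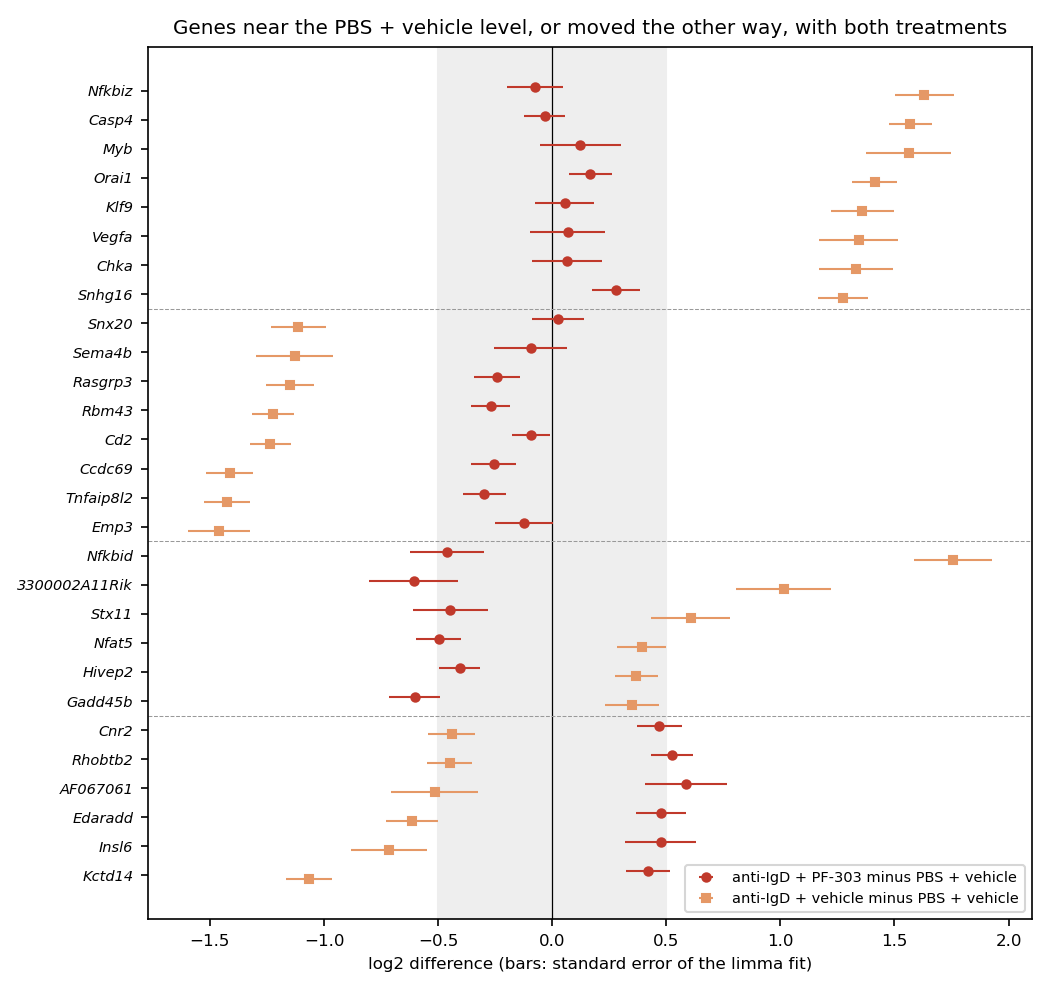
Log2 differences of 28 genes for anti-IgD plus PF-303 minus PBS plus vehicle (circles) and for anti-IgD plus vehicle minus PBS plus vehicle (squares), with standard errors of the limma fit. The circles of the first 16 genes lie within the shaded band of 0.5 around 0, while those of the last 12 lie on the other side of 0 from the squares; both sets of points share the PBS plus vehicle arrays.

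The net differences were also read within single rows of the position code. The row letters C, F and G of the position code each held arrays of both groups, and the labels do not say what the code stands for. The genes counted here were called on these same arrays. Agreement of sign within rows is therefore largely set by that choice and is no separate test. Of the 1335 genes called higher, 1321 were higher within row C, 1332 within row F and 1282 within row G. Of the 1493 called lower, 1467, 1487 and 1422 were lower within the same rows. All 137 genes at least 2-fold higher kept their sign in each of the 3 rows, and 43, 43 and 42 of the 43 at least 2-fold lower did. Rragd differed by 2.39 within row C, 2.33 within row F and 2.36 within row G, and Plk2 by 3.51, 3.78 and 3.40. Fos differed by -2.12, -1.47 and 0.10 in the same rows, so that its sign turned in row G. Rows C and F each held 2 arrays of anti-IgD plus PF-303 and 1 of PBS plus vehicle, and row G held 1 of each. The array of row G with both treatments is array 4, the same array that stood apart for Fos.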

How the data were processed

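The deposited values are MAS5 intensities of Affymetrix Mouse Genome 430 2.0 arrays, made by the authors from 150 ng of total RNA per sample, with MAS5 named without a version in the submitters' processing notes. The 2% trimmed mean was near equal on all arrays, and the deposited intensity is linear and was neither shifted nor renormalised here. Of 45101 probe sets, 34945 carried 1 gene symbol, 932 several and 9160 none in the platform annotation, and 18193 genes were named. Only 204 of the probe sets had a symbol without a RefSeq match. A gene was tested on its probe set of highest mean signal where that signal exceeded 15.19, the median of all values, on at least 4 arrays. Tests used limma 3.58.1 in R 4.3.3 (lmFit, eBayes with a mean-variance trend) on log2(signal + 16), with 1 mean for each of the 4 groups and all 18 arrays sharing 1 estimate of spread. The adjusted p is two-sided, by the Benjamini-Hochberg method over 11104 genes. Group membership came from the sample labels. The members, gene lists and named genes were chosen with earlier results of these data known.

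Named genes were the 15 called genes with the largest rise and the 15 with the largest fall among those whose arrays did not overlap, the 6 highest and 6 lowest of the genes beyond each other group, a set list of 20 receptor response genes, the leading called members of each list, and the genes with the strongest anti-IgD response that were near level or opposite in the net comparison. Ighd, a member of the set list, was not among the named genes, so its signal was not tested. Genes outside this rule were named after their values were seen. Alternatives were another offset, filter, normalization, choice of probe set, fit, block or set of arrays. The scripts were tested on simulated data. Equal replicate numbers did not mark paired samples in the data, with correlations of deviations between -0.161 and 0.225.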

Additional observations from a re-analysis of the deposited data

Results flagged for a closer look

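In 20 of 320 sets of arrays of 1 group and 1 named gene, a single array lay far from the others, where chance alone marks about 1 set in 20. Arrays 3 and 4 of PBS plus vehicle were the far array in 5 sets each. Arrays 1 to 4 of anti-IgD plus PF-303 were it in 3, 2, 2 and 3 sets, and array 5 of that group and arrays 1 and 2 of PBS plus vehicle in none.

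In anti-IgD plus PF-303, array 4 stood apart for Fos, with a signal of 326.5 where the other arrays lay between 36.93 and 73.43, for Cd69 with 373.2 where the others lay between 554.3 and 579.5, and for Bmf with 89.69 where the others lay between 142.1 and 164.8. Array 1 had 1181 for Cd180, a Toll-like receptor homologue, where the others lay between 378.3 and 504.4. It also had 262.3 for Gbp3 (others 204.6 to 209.1) and 163.1 for Snx20 (others 187.8 to 197.2). Array 3 had 230.6 for Gadd45b (others 161.1 to 171.4) and 31.95 for Vav3 (others 44.45 to 49.45). Array 2 had 286.5 for S1pr4 (others 328.1 to 344.9) and 506.9 for Mnt, a MAX-binding repressor (others 581.9 to 591.3).

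In PBS plus vehicle, array 3 had 567.0 for Rflnb (others 314.8 to 337.9), 150.1 for Eif4e3 (others 113.3 to 116.7) and 44.05 for Shmt1 (others 66.86 to 71.76). It also had 521.1 for Hspa9 (others 587.9 to 590.9) and 2452 for H2-DMa (others 2120 to 2173). Array 4 had 117.4 for Lztfl1 (others 160.6 to 169.4), 166.5 for Gnpda1 (others 81.88 to 92.6) and 276.3 for Cnot8, a deadenylase subunit (others 386.7 to 394.3). It also had 616.4 for Cnr2 (others 820.7 to 842.2) and 710.1 for Kctd14 (others 494.1 to 505.7).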

How the results depend on the processing

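The counts of genes called higher and lower stayed within 1.5 times their values in every setting run, and single arrays left out gave 1162 to 1328 higher and 1265 to 1497 lower. The same fits gave 131 to 145 genes at least 2-fold higher, 43 to 63 at least 2-fold lower, 173 to 220 above and 30 to 46 below each other group, and 5256 to 6042 with an interval within 0.5 of 0. The offset moved the 2-fold counts: an offset of 64 left 76 higher and 18 lower, and an offset of 1 gave 113 lower. The row letter as a block, in which the anti-IgD groups shared only row C, left 92 genes above and 15 below each other group. The mean of a gene's probe sets gave 65 below. The number of genes with a net difference inside 0.5 of 0 was 9120 at an offset of 64, 4369 at an offset of 1 and 10746 with no filter on low signals. With the replicate number as a block, 1374 genes were higher and 1531 lower, and no count of calls over all genes moved by over 1.5 times. Same-numbered samples did not deviate together (correlations -0.161 to 0.225). The first principal component separated the groups by 30.48 with one median per array and by 30.13 after quantile normalization (exact permutation p = 0.0159 in both, two-sided). Of the 160 named genes, 125 kept their call in every setting. No call turned into a call of the other sign. The difference of Cabin1, a calcineurin inhibitor, from anti-IgD plus vehicle was 0.17 and not called (limma's adjusted p = 0.235). With the mean of its probe sets it was -0.23 and called (adjusted p = 0.046), the only such change of sign. The cause was not tested. Genes near background carry the least precise differences, and 5 against 4 arrays cannot give an exact p under 0.0159.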
